A study of Homo sapiens with 4 samples.

Results

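Keratin genes were taken as the protein-coding genes whose symbol is KRT followed by a number, with or without a final A, B or C, matched to the deposited table by Ensembl identifier. Keratin-associated proteins and keratin pseudogenes were left out. The rule found 55 genes among the 60234 rows of the table, 29 of type I, of which 28 lie on chromosome 17, and 26 of type II, which together with 1 type I gene (KRT18) make up the 27 on chromosome 12. They were sorted into simple keratins (5 genes), stratified keratins (21 genes) and hair and inner root sheath keratins (26 genes), and 3 genes (KRT23, KRT80 and KRT222) were placed in no class. The rule used symbols alone and no measured value.

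The cells came from NKX2.5:GFP hESCs, an established human embryonic stem cell line with GFP placed at NKX2-5, a cardiac transcription factor gene, whose activity the fluorescence reports. Embryoid bodies were differentiated towards the heart and received either 1 µM retinoic acid (RA) or the solvent DMSO (CTR) from day 4 to day 7, and at about a month were divided by a fluorescence sort into a GFP-positive and a GFP-negative fraction. All 4 populations therefore carry the reporter and went through the same cardiac protocol. Each population gave 1 library, so differences could not be set against replicate error and are given without a test. RA and CTR cells also grew in separate cultures, and an effect of RA and a difference between cultures cannot be told apart. In sorted populations, fewer cells of a type and less RNA per cell cannot be told apart either.

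The libraries held 28125727 reads (RA-treated GFP-positive), 28643091 (CTR GFP-positive), 26222787 (RA-treated GFP-negative) and 4371101 (CTR GFP-negative). Levels are given as CPM, the count relative to library size after TMM scaling, and intervals given below are 95% intervals for counting error only. A gene without reads may hide up to 3 reads, a limit of 0.639 CPM for the shallow CTR GFP-negative library and of 0.105 to 0.117 CPM elsewhere. NKX2-5 had 463 and 593 CPM in the GFP-positive and 9.74 and 14.5 CPM in the GFP-negative libraries, RA first. The summed level of 7 cardiomyocyte markers was 15323 and 17864 CPM against 401 and 766 CPM in the same order. The GFP-negative cells have no cell type label.

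Keratins are the intermediate filament proteins of epithelial cells. A filament is built from pairs of 1 acidic type I and 1 basic type II chain, so cells express keratins of both types together, such as KRT8 with KRT18 in simple epithelia or KRT5 with KRT14 in the basal layer of stratified epithelia. Simple keratins are the first keratins of the embryo and also appear in early embryonic heart tissue, the stratified keratins mark skin and the linings of mouth and oesophagus, and hair keratins harden the hair shaft and nail.

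Simple keratins made up nearly all of the keratin RNA in every library. The 55 genes summed to 751 and 764 CPM in GFP-positive cells and to 2382 and 1597 CPM in GFP-negative cells (RA, CTR). KRT8, KRT18 and KRT19 alone held 91.2% and 94.4% of the keratin reads in GFP-positive and 89.1% and 90.1% in GFP-negative cells. The keratin sum was thus higher in both GFP-negative libraries than in either GFP-positive library. The GFP-positive level was 0.315-fold that of the GFP-negative cells with RA (0.310 to 0.320) and 0.478-fold in CTR (0.466 to 0.491).

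Most other members were rare. Only 9 genes reached 10 CPM in a library (KRT4, KRT5, KRT7, KRT8, KRT10, KRT17, KRT18, KRT19 and KRT80), 7 more had between 1 and 10 CPM at their highest (KRT1, KRT6A, KRT13, KRT14, KRT15, KRT16 and KRT23), and 39 stayed below 1 CPM in all 4 libraries. At the detection limit of 4 reads, 18, 17, 32 and 14 of the 55 genes were detected in RA-treated GFP-positive, CTR GFP-positive, RA-treated GFP-negative and CTR GFP-negative cells. Thinned to the 4371101 reads of the smallest library, the numbers were 11, 8, 16 and 14. The RA-treated GFP-negative library therefore held the widest set of keratins at full depth, and 2 more than the CTR GFP-negative library at equal depth. Counting all libraries, 35 genes were detected somewhere, 13 everywhere, and 10 had no read.

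**Figure D1:**
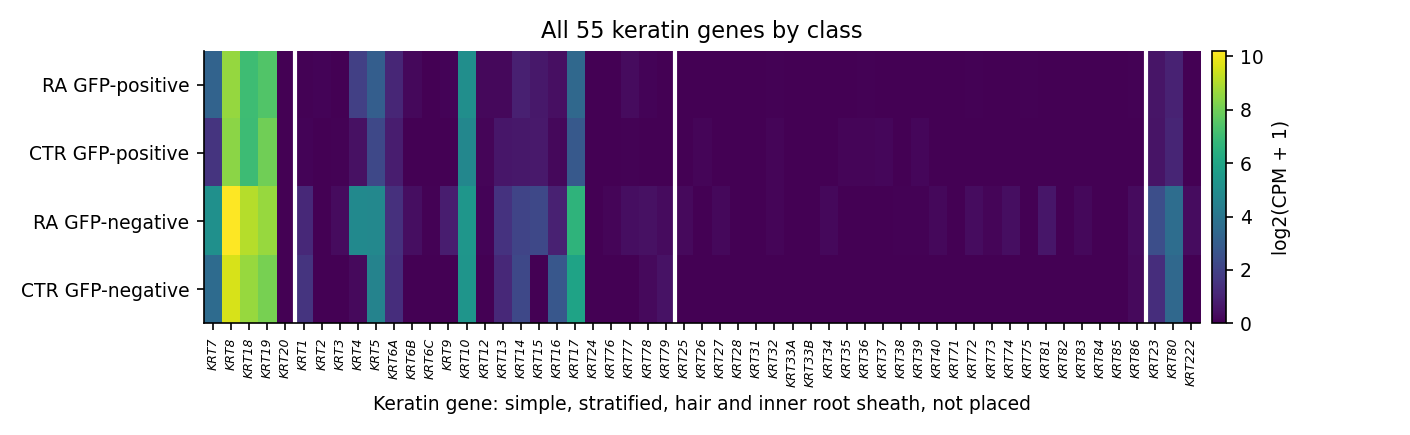
Level of all 55 keratin genes (columns, by class, white lines between classes) in the 4 libraries (rows), as colour on the log2(CPM + 1) scale. The bright columns are KRT8, KRT18 and KRT19 in every library, and the 26 hair and inner root sheath keratins stay dark, with no member above 0.546 CPM.

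The oesophageal keratin KRT4, which has the widest range between libraries among the members past 10 CPM, is shown by the 170 bases before the start of its canonical transcript. The sequence was read from the GRCh37 genome 5′ to 3′ on the strand of the gene, at chr12:53207901-53208070 (minus strand). Matches on either strand to the TATA box letters TATAAA, the GC box letters GGGCGG and the letters of AP-1 (TGANTCA), grainyhead-like (AACCNGTT) and nuclear receptor half-site (AGGTCA) motifs would stand in capitals, and this window holds none. Only exact letters were matched, and tataag, which differs from the TATA letters in its last base, stands near the end of the window.
KRT4: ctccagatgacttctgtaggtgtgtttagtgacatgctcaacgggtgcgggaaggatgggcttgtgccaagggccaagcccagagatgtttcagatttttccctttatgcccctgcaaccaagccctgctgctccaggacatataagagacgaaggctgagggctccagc

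Windows of the same length before all 55 keratin genes were searched for these letters. The TATA letters occurred in 24 of them (43.6%), against 7.04% of 19894 protein-coding genes, and the GC box in 10 (18.2%) against 54.4%. The AP-1 letters occurred in none of the keratin windows (3.13% of all genes), the grainyhead-like letters in 2 (0.809% of all genes) and the half-site in 5 (6.57% of all genes). A match is a string of letters and not a bound site.

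KRT8 (ENSG00000170421), the type II partner in simple epithelia, was the most abundant keratin in each library. It had 10248 and 9787 reads (383 and 342 CPM) in GFP-positive cells and 30382 and 3577 reads (1184 and 762 CPM) in GFP-negative cells (RA, CTR). Both GFP-negative levels were higher than both GFP-positive levels, and KRT8 ranked 61 and 88 among all genes in the GFP-negative libraries (RA, CTR) against 277 and 327 in the GFP-positive ones. The gene lies on chromosome 12 of GRCh37 from 53290971 to 53343738 on the minus strand.

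KRT18 (ENSG00000111057; chromosome 12, 53342655 to 53346690, plus strand), the type I partner of KRT8 and its head-to-head neighbour, followed the same order. It had 3448 and 3619 reads (129 and 126 CPM) in GFP-positive cells and 13975 and 1872 reads (545 and 399 CPM) in GFP-negative cells (RA, CTR). The GFP-positive levels differed little and both lay below the GFP-negative levels.

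KRT19 (ENSG00000171345; chromosome 17, 39679869 to 39684560, minus strand), a short type I keratin without the tail domain that can pair with KRT8, had another order. Its GFP-positive counts were 4628 and 7263 reads (173 and 253 CPM) and its GFP-negative counts 10089 and 1307 reads (393 and 278 CPM; RA, CTR). The CTR GFP-positive and CTR GFP-negative levels lay close to each other, with a ratio of 0.911 (0.858 to 0.967).

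KRT7 (ENSG00000135480; chromosome 12, 52626304 to 52645970, plus strand), a type II keratin of ducts, amnion and mesothelium, was far less abundant. Its GFP-positive counts were 230 and 55 reads (8.60 and 1.92 CPM) and its GFP-negative counts 858 and 51 reads (33.4 and 10.9 CPM; RA, CTR). In both fractions the RA library was the higher. KRT20, the type I keratin of gut epithelium, had no reads in any library, which allows up to 0.639 CPM in CTR GFP-negative cells and up to 0.117 CPM elsewhere.

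**Figure D2:**
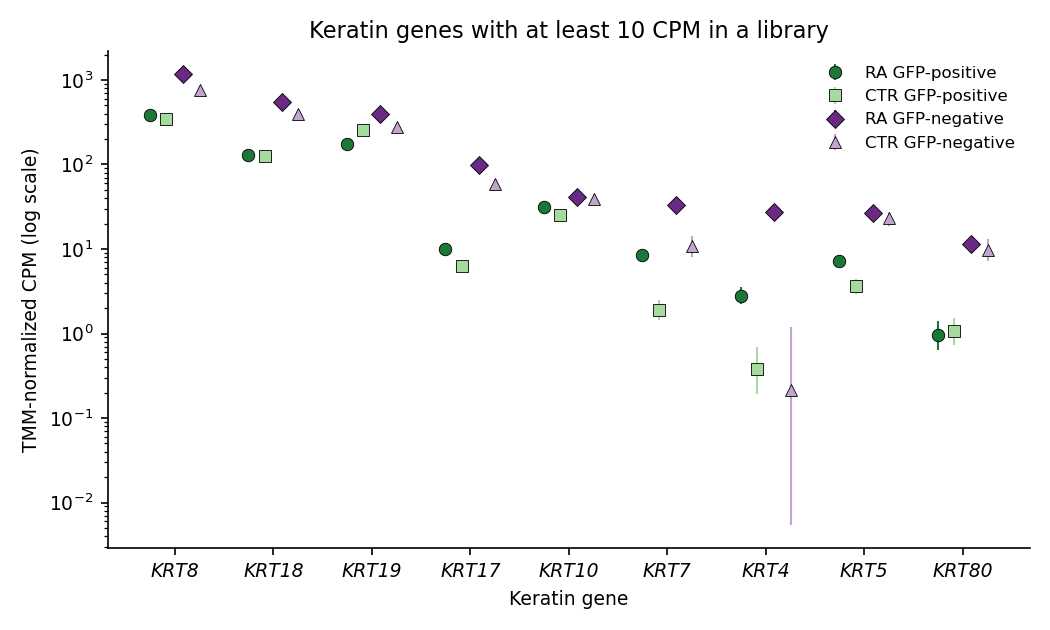
TMM-normalized CPM (log axis) of the 9 keratin genes with at least 10 CPM in a library, 1 point per library with its exact Poisson 95% interval. For all genes shown but KRT4 both GFP-negative points lie above both GFP-positive points, and among GFP-negative cells KRT4 lies at 27.7 CPM with RA and 0.213 CPM in CTR.

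Whether RA-treated GFP-positive cells differed from CTR GFP-positive cells in their keratins was asked first, as these are the sorted cardiac cells. On the scale of log2(CPM + 1), 0 of the 4 keratins with at least 10 CPM in either library were at least 2-fold higher with RA and 0 were at least 2-fold lower. Among all 11186 genes tested this way, 4.14% were higher and 1.67% lower, so 4 genes are too few to read a share from. The median difference of the 4 keratins was 0.10 against 0.02 over all genes, and among the 20 keratins with at least 4 reads in either library 14 were above 0 and 6 below.

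KRT19 differed most among these 4, with a level in RA-treated GFP-positive cells 0.683-fold that of CTR (0.658 to 0.708), a log2 difference of -0.55. KRT8 had a ratio of 1.12 (1.09 to 1.15) and KRT10 one of 1.26 (1.14 to 1.39). KRT18 had a ratio of 1.02 (0.974 to 1.07), and its log2 difference of 0.03 turned to -0.04 under scaling by library size alone. The simple keratins as a sum had a ratio of 0.959 (0.940 to 0.979). KRT19 thus stood apart from KRT8, KRT10 and KRT18 in the sorted cardiac cells.

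Below 10 CPM, KRT7 and KRT4 were higher in RA-treated than in CTR GFP-positive cells. KRT7 was 4.48-fold higher (3.33 to 6.13), and its log2 difference of 1.72 ranged from 0.97 with a pseudocount of 5 CPM to 2.03 with 0.25 CPM. KRT4 (ENSG00000170477; chromosome 12, 53200333 to 53207900, minus strand), a type II keratin of the oesophagus and other wet stratified linings, had 75 reads against 11, or 7.31-fold (3.86 to 15.3), and its log2 difference of 1.46 ranged from 0.38 at equal depth to 2.27 with a pseudocount of 0.25 CPM. KRT5, the type II keratin of basal cells, had 193 against 104 reads and a ratio of 1.99 (1.56 to 2.55), and KRT17, an injury-induced type I keratin, 266 against 179 reads and a ratio of 1.59 (1.31 to 1.94). KRT13, another stratified keratin, went the other way, with 4 against 15 reads and a ratio of 0.286 (0.0690 to 0.897). The sum of the 21 stratified keratins was 55.5 CPM with RA and 38.4 CPM in CTR, a ratio of 1.45 (1.34 to 1.57).

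Markers of other cell types also differed between the GFP-positive libraries. The 5 epithelial markers (CDH1, EPCAM, CLDN4, CLDN7 and CDH3), all detected in both libraries, summed to 117 CPM with RA and 103 CPM in CTR, with EPCAM and CLDN4 at least 2-fold higher and CDH3 at 46.1 and 69.9 CPM. CLDN4 (17.2 and 7.40 CPM) reached 10 CPM with RA alone, so it could only be higher. The 6 fibroblast markers summed to 14957 and 3883 CPM. Of the gut and liver endoderm markers, AFP had 604 and 8 reads, and FOXA2, HNF4A and CDX2 had 13, 22 and 8 reads with RA and none in CTR, whereas TTR had 11 and 94 reads. The 6 markers of amnion and surface ectoderm summed to 139 and 43.7 CPM, of which IGFBP3 alone held 126 and 40.6 CPM. The 6 mesothelial markers summed to 71.6 and 69.1 CPM, with members in both directions: ALDH1A2 had 39.3 and 9.46 CPM, TBX18 10.5 and 28.0 CPM and WT1 2.88 and 11.6 CPM. The part of these cells in the keratin differences was not tested.

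In GFP-negative cells, 2 of the 9 keratins with at least 10 CPM in either library, KRT4 and KRT7, were at least 2-fold higher with RA and 0 were at least 2-fold lower. Over all 11606 genes tested, 4.95% were higher and 3.18% lower. All 9 keratins lay above 0, with a median log2 difference of 0.50 against 0.08 over all genes. Scaling by library size alone moved the median of all genes to -0.06, and KRT10, at 0.08 with TMM, then fell below 0, with a lowest value of -0.17 over the alternatives, while the other 8 kept their sign. KRT4 and KRT80 reached 10 CPM through the RA library alone, so they could pass this limit only by being higher there.

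KRT4 showed the widest gap of these 9 keratins, with 710 reads in GFP-negative cells given RA and 1 in those given DMSO, or 27.7 and 0.213 CPM. The ratio of 130 rests on that 1 read and has an interval of 23.2 to 5139. KRT13, the type I partner of KRT4 in oesophageal lining, did not share it, with 46 and 6 reads (1.79 and 1.28 CPM) and a ratio of 1.40 (0.598 to 4.02). Per kilobase of transcript, KRT4 was 12.4-fold KRT13 in RA-treated GFP-negative cells and 15.0-fold in RA-treated GFP-positive cells, where KRT13 had 4 reads, but 0.133-fold and 0.587-fold in the CTR cells, where KRT4 had 1 and 11 reads.

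KRT7 was 3.08-fold higher with RA in GFP-negative cells (2.32 to 4.17), a log2 difference of 1.54. The 3 abundant simple keratins were also higher, at ratios of 1.55 for KRT8 (1.50 to 1.61), 1.37 for KRT18 (1.30 to 1.43) and 1.41 for KRT19 (1.33 to 1.50). The simple keratins summed to 2155 CPM with RA and 1450 CPM in CTR, a ratio of 1.49 (1.45 to 1.52), and the stratified keratins to 208 and 136 CPM, a ratio of 1.53 (1.41 to 1.66). KRT17, with 97.7 and 59.2 CPM, was 1.65-fold higher (1.46 to 1.87), whereas KRT5 (1.16, 0.942 to 1.43), KRT10 (1.06, 0.902 to 1.25) and KRT80 (1.19, 0.867 to 1.65) had intervals that include 1.

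Several members below 10 CPM pointed in opposite directions. KRT15, a type I keratin of basal cells, had 94 reads with RA and none in CTR. Set against the 3 reads that the CTR library could hide, its ratio was 5.73. The lower limit of its interval for counting error was 4.57. KRT23 had 114 and 7 reads, a ratio of 2.98 (1.40 to 7.58). KRT16, an injury-induced type I keratin, pointed the other way, with 23 reads (0.896 CPM) with RA and 27 (5.75 CPM) in CTR, a ratio of 0.156 (0.0854 to 0.282). KRT14, the basal partner of KRT5, had 84 and 17 reads and a ratio of 0.904 (0.532 to 1.62).

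The 5 epithelial markers summed to 675 CPM in RA-treated and 339 CPM in CTR GFP-negative cells. EPCAM had 127 and 18.1 CPM, CLDN4 255 and 20.2 CPM and CLDN7 45.5 and 6.81 CPM, whereas CDH1 had 146 and 122 CPM and CDH3 101 and 172 CPM. The markers of amnion and surface ectoderm summed to 2136 and 986 CPM. IGFBP3 had 1927 and 960.0 CPM and GABRP 133 and 9.16 CPM, and of the 5 that reached 10 CPM all but IGFBP3 did so through the RA library alone, which fixed their direction. Of the gut and liver endoderm markers, AFP had 465 and 2.98 CPM, HNF4A 17.8 and 0.639 CPM, CDX2 17.3 and 1.49 CPM and FOXA2 9.35 CPM and no reads, whereas TTR had 11.7 and 73.0 CPM. By contrast the mesothelial markers summed to 441 and 752 CPM and the 6 pigment epithelium markers to 92.3 and 717 CPM, with RPE65 at 2 reads and none. Fibroblast markers summed to 61054 and 31902 CPM, endothelial markers to 284 and 296 CPM and pluripotency markers to 71.4 and 52.4 CPM, with POU5F1 and NANOG without reads in CTR and SOX2 at 14.3 and 33.6 CPM. Their part in the keratin differences was not tested.

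**Figure D3:**
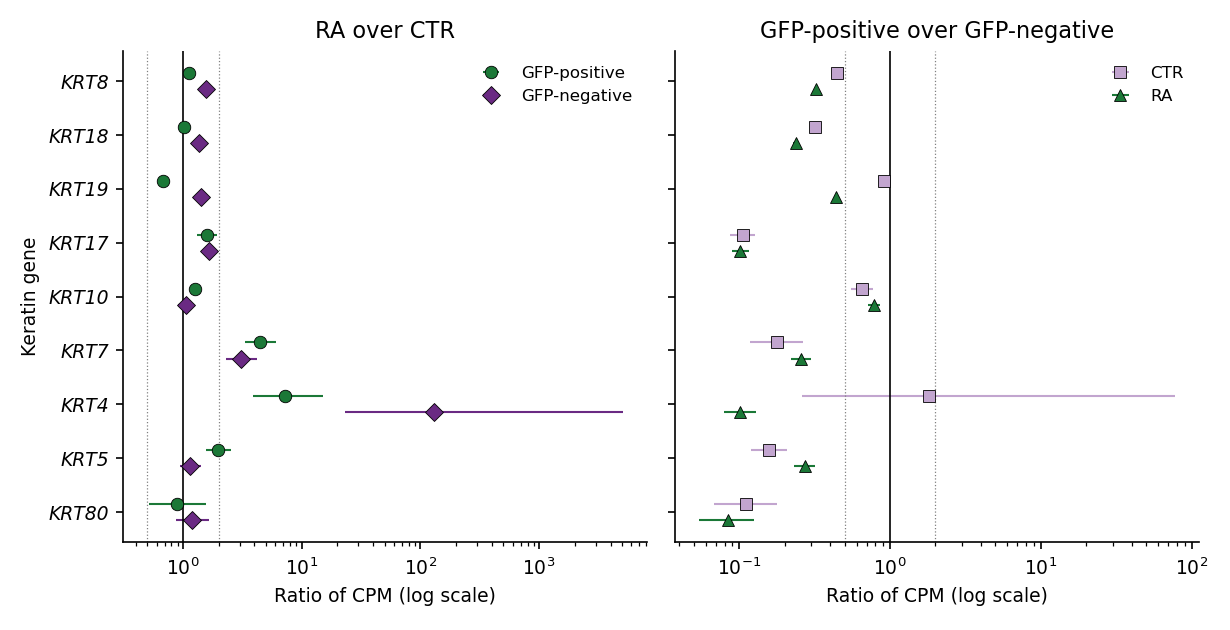
Ratios of CPM with Clopper-Pearson 95% intervals (log axes) for the 9 keratins with at least 10 CPM in a library, RA over CTR on the left and GFP-positive over GFP-negative on the right, with dotted lines at 2-fold. On the left KRT7 and KRT4 lie to the right of 2-fold in both fractions, and KRT19 has 1 interval on either side of 1 (ratios 0.683 and 1.41). KRT18 in GFP-positive cells and KRT10 in GFP-negative cells lie so near 1 that their side depends on the scaling. On the right all points but KRT4 in CTR lie below 1.

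Sorted cardiac cells were then compared with the GFP-negative cells of the same culture. These 2 comparisons use the same 4 libraries as the RA comparisons, so their values are not independent of them. In CTR, 5 of the 7 keratins with at least 10 CPM in either library (KRT5, KRT7, KRT8, KRT17 and KRT18) were at least 2-fold lower in GFP-positive cells and 0 were higher, while 13.3% of all 11806 genes were lower and 11.9% higher. With RA, 8 of 9 (all but KRT10) were at least 2-fold lower and 0 higher, while 12.4% of all 11850 genes were lower and 9.97% higher. The median log2 difference of the keratins was -1.65 in CTR and -1.84 with RA, against 0.08 and 0.02 over all genes. KRT5, KRT7 and KRT17 in CTR, and with RA also KRT4 and KRT80, reached 10 CPM in the GFP-negative library alone, so their direction was fixed by that limit. Epithelial markers differed in the same direction. Their sum in GFP-positive cells was 0.302-fold that of GFP-negative cells in CTR (0.284 to 0.321) and 0.174-fold with RA (0.167 to 0.181). The sums for amnion and surface ectoderm were 0.0444-fold and 0.0652-fold (CTR, RA), for endothelium 0.0572 and 0.0591, and for mesothelium 0.0918 and 0.162. Those for fibroblasts were 0.122 and 0.245, for gut and liver endoderm 0.130 and 0.0572, and for pluripotency markers 0.368 and 0.175. Pigment epithelium was at 0.146 in CTR, but with RA its interval was 0.897 to 1.01. Cardiomyocyte markers went the other way, at 23.3-fold and 38.2-fold. The part of such cells in the keratin levels was not tested.

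As sums, the stratified keratins differed more between fractions than the simple ones, which did not hold for every member. KRT17 was 0.106-fold in GFP-positive relative to GFP-negative cells in CTR (0.0869 to 0.128) and 0.102-fold with RA (0.0894 to 0.116). KRT8 was 0.448-fold (0.431 to 0.466) and 0.324-fold (0.316 to 0.331), and KRT18 was 0.317-fold (0.300 to 0.335) and 0.237-fold (0.228 to 0.246). KRT19 differed less than KRT8 and KRT18, at 0.911-fold in CTR and 0.440-fold with RA (0.425 to 0.456). As sums, simple keratins were 0.499-fold in CTR (0.485 to 0.513) and 0.322-fold with RA (0.317 to 0.327), and stratified keratins 0.283-fold (0.256 to 0.312) and 0.267-fold (0.252 to 0.283).

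Among the stratified keratins past 10 CPM, KRT10 (type I, an early marker of keratinocyte differentiation in skin) varied least, with 31.7, 25.2, 40.8 and 38.5 CPM in RA-treated GFP-positive, CTR GFP-positive, RA-treated GFP-negative and CTR GFP-negative cells. Its ratio between fractions was 0.654 in CTR (0.555 to 0.774) and 0.778 with RA (0.710 to 0.852). KRT1, the type II partner of KRT10 in skin, had only 1, 2, 32 and 9 reads in the same order, or 1.25 and 1.92 CPM in RA-treated and CTR GFP-negative cells. KRT80 had 26, 31, 298 and 46 reads and was 0.110-fold in CTR (0.0677 to 0.178) and 0.0837-fold with RA (0.0538 to 0.125). KRT5 had 7.22, 3.63, 26.6 and 23.0 CPM, with GFP-positive levels 0.158-fold (0.119 to 0.209) and 0.272-fold (0.230 to 0.319) of the GFP-negative levels in CTR and with RA.

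The remaining stratified keratins with at least 1 CPM in a library were KRT6A, with 30, 22, 43 and 7 reads in the same order, and KRT13, with 4, 15, 46 and 6 reads. KRT24, like KRT1 a classifier gene of the study, had no reads in any library. KRT9, the keratin of palm and sole skin, had 2, 0, 19 and 0 reads. These counts are low. The RA-treated GFP-negative library had the most reads of KRT13, KRT6A and KRT9, which is not a comparison at equal depth. As ratios of GFP-positive to GFP-negative cells with RA, KRT13 had 0.0834 (0.0218 to 0.229) and KRT9 0.101 (0.0114 to 0.419). That of KRT6A, 0.669 (0.405 to 1.09), has an interval that includes 1.

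**Figure D4:**
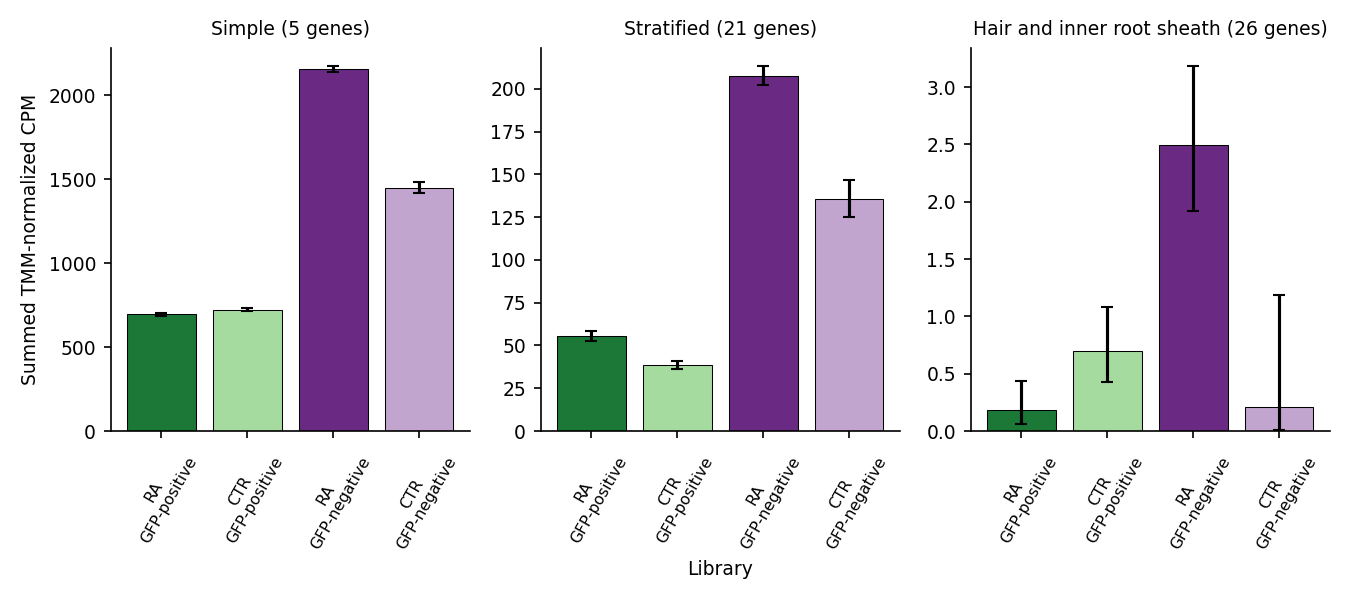
Summed TMM-normalized CPM of the simple (5 genes), stratified (21 genes) and hair and inner root sheath keratins (26 genes) in each library, with exact Poisson 95% intervals as bars and a separate linear axis from 0 in each panel. The GFP-negative bars are the higher pair for simple and stratified keratins, and the hair class stays at or below 2.49 CPM.

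Hair and inner root sheath keratins were close to absent. The 26 genes together had 5, 20, 64 and 1 reads in RA-treated GFP-positive, CTR GFP-positive, RA-treated GFP-negative and CTR GFP-negative cells, or 0.187, 0.698, 2.49 and 0.213 CPM. In RA-treated GFP-negative cells 9 of the 26 had at least 4 reads, led by KRT81 with 14. In CTR GFP-positive cells 2 did, with 4 reads each, and in the other libraries none did. The ratio of RA to CTR in GFP-negative cells, 11.7, rests on the 1 CTR read and has an interval of 2.03 to 470.

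Because levels of different genes are comparable only per length, the pairs were compared as reads per kilobase of the canonical transcript within a library. KRT18 was 0.425-fold and 0.467-fold KRT8 in the RA-treated and CTR GFP-positive libraries and 0.581-fold and 0.661-fold in the GFP-negative ones. The type I partner thus held a smaller share relative to KRT8 in GFP-positive cells. KRT19 relative to KRT18 was 1.36 in RA-treated and 2.04 in CTR GFP-positive cells, against 0.734 and 0.710 in GFP-negative cells. KRT19 was therefore the more abundant of these type I keratins in GFP-positive cells and the less abundant in GFP-negative cells, in RA and CTR alike.

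Relative to KRT8, KRT19 reached 0.952 in CTR GFP-positive cells and 0.580, 0.426 and 0.469 in RA-treated GFP-positive, RA-treated GFP-negative and CTR GFP-negative cells. Over all members, type I keratins per kilobase were 1.06, 1.48, 1.06 and 1.22 times the type II keratins in RA-treated GFP-positive, CTR GFP-positive, RA-treated GFP-negative and CTR GFP-negative cells. As counted, the sums of both types were closest to equal in the RA-treated libraries. Only uniquely aligned reads were counted, and the members differ in how much of their sequence is unique. Of the stretches of read length in the KRT8 transcript, 18.8% also occur in genes elsewhere, against 6.50% for KRT18 and 0% for KRT19. The ratios were not corrected for this, and which libraries lie closest to equal after correction was not tested. For the basal pair, KRT14 was 0.163, 0.210, 0.168 and 0.215 of KRT5 in the library order given for the sums, with intervals that overlap. KRT17 was 2.03, 2.54, 5.42 and 3.80 times KRT5 in that order.

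**Figure D5:**
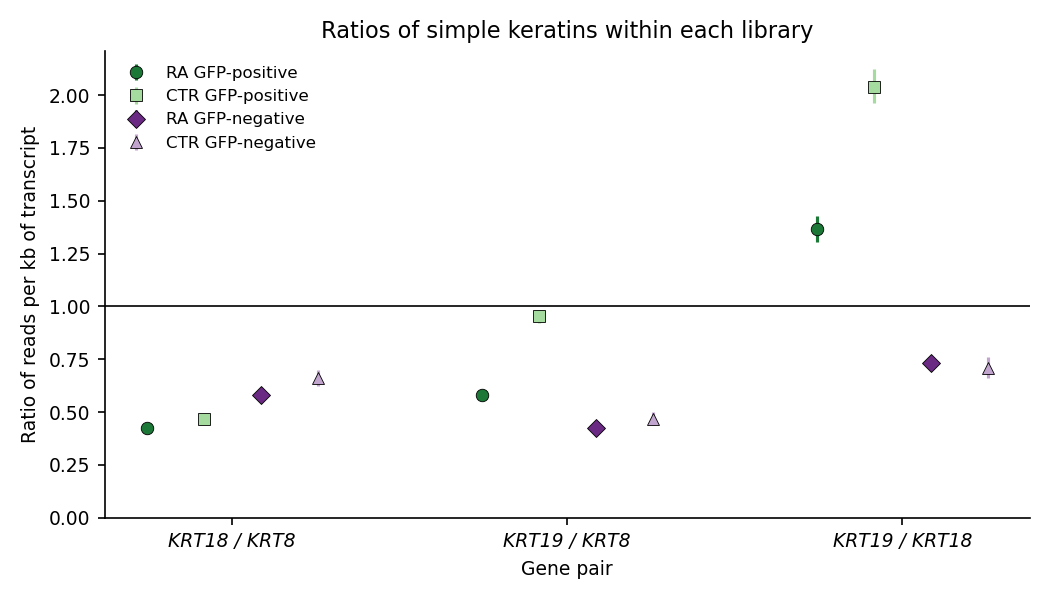
Ratios of reads per kilobase of transcript between simple keratins within each library, with 95% intervals for counting error and a line at 1. KRT19 over KRT18 lies above 1 in both GFP-positive libraries (1.36 and 2.04) and below 1 in both GFP-negative libraries (0.734 and 0.710).

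Near-identical copies bear on several members. Of the windows of 75 bases, the read length, in the canonical KRT8 transcript, 18.8% also occur in genes elsewhere, and for KRT18 6.50% do. For KRT14, KRT16 and KRT17 the shares were 10.2%, 9.60% and 4.57% and for KRT5 2.77%, whereas KRT19, KRT7, KRT4, KRT10 and KRT80 share none. The 51 KRT8 pseudogene rows held between 7.35% and 8.81% as many reads as KRT8, and the 67 KRT18 pseudogene rows between 3.21% and 5.75% as many as KRT18. KRT6A, KRT6B and KRT6C share 26.2%, 34.6% and 42.5% of their windows, so their low counts are uncertain. Exons of KRT8 and KRT18 overlap on opposite strands over 525 bases, and KRT7 overlaps KRT7-AS over 282 bases. Counting ignored strand, so reads in such stretches cannot be assigned to either gene.

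The proteins that anchor keratins were described next to the filament genes. Of 17 desmosome and keratin linker genes, which tie keratins to cell junctions, 11 reached 10 CPM in GFP-positive cells, and PKP1 and DSC3 were at least 2-fold higher and PKP2 at least 2-fold lower with RA, where 4.14% of all genes were higher and 1.67% lower. PKP1 and DSC3 reached 10 CPM through the RA library alone, so they could only be higher. PKP2, the plakophilin of heart muscle, had 114 CPM with RA and 367 CPM in CTR, and PKP1, the plakophilin of stratified epithelia, 32.3 and 4.61 CPM. In GFP-negative cells EVPL and PKP3 of 13 were higher and none lower, against 4.95% and 3.18% of all genes, and both reached 10 CPM with RA alone. DSP, desmoplakin, was abundant in all libraries, at 338, 401, 308 and 284 CPM in RA-treated GFP-positive, CTR GFP-positive, RA-treated GFP-negative and CTR GFP-negative cells. The list summed to 1895, 2362, 2066 and 2183 CPM. Between fractions, 4 of 10 were at least 2-fold lower in GFP-positive cells in CTR (DSC2, DSC3, DSG2 and PPL) and 5 of 13 with RA (DSC2, DSC3, EVPL, PKP3 and PPL), with 1 higher in each (PKP2 in CTR, PKP1 with RA). Over all genes 13.3% were lower and 11.9% higher in CTR, and 12.4% and 9.97% with RA. DSC3 in CTR and EVPL and PKP3 with RA reached 10 CPM in GFP-negative cells alone, so they could only be lower. The median log2 differences were -0.22 and -0.83.

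Hemidesmosome genes, which hold basal keratins to the basement membrane, summed to 391, 378, 641 and 816 CPM in the same order. None of the 4 that reached 10 CPM in GFP-positive cells passed 2-fold (4.14% of all genes were higher and 1.67% lower), while COL17A1 was higher and LAMA3 lower with RA among 8 in GFP-negative cells (4.95% and 3.18% of all genes), COL17A1 having reached 10 CPM with RA alone. Between fractions, 5 of 7 were lower in GFP-positive cells in CTR and 6 of 8 with RA, where 13.3% and 12.4% of all genes were lower. ITGB4 had 10.3 against 125 CPM in CTR, while several others reached 10 CPM in GFP-negative cells alone. Other intermediate filament genes summed to 2570, 1907, 2380 and 2073 CPM and 0 of 7 passed 2-fold between RA and CTR in either fraction. In both cultures DES, the muscle filament desmin, was higher in GFP-positive cells and VIM, the mesenchymal filament vimentin, higher in GFP-negative cells. DES had 1588, 1127, 278 and 328 CPM and VIM 320, 223, 1396 and 1158 CPM.

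Of 14 epithelial transcription factor genes, 2 reached 10 CPM in GFP-positive cells and KLF4 was at least 2-fold higher with RA, at 10.4 and 1.50 CPM, against 4.14% of all genes higher and 1.67% lower. KLF4 had reached 10 CPM with RA alone. In GFP-negative cells 4 of 7 were higher with RA (ELF3, GRHL2, KLF4 and TFAP2A) and none lower, against 4.95% and 3.18% of all genes. GRHL2 and TFAP2A reached 10 CPM with RA alone, so they could only be higher. GRHL2, a regulator of epithelial junction genes, had 16.0 and 4.90 CPM. TP63, the regulator of basal keratinocytes, had 15 and 3 reads in RA-treated and CTR GFP-positive cells and 101 and 8 reads (3.94 and 1.70 CPM) in RA-treated and CTR GFP-negative cells. The 12 cornified envelope genes of the outer skin layer summed to 5.87, 8.76, 26.0 and 15.1 CPM in RA-treated GFP-positive, CTR GFP-positive, RA-treated GFP-negative and CTR GFP-negative cells. In the same order, TGM1 had 2.88, 6.32, 9.59 and 9.16 CPM and SPRR3 had 1.35, 0.314, 10.0 and 1.70 CPM. FLG had no reads in any library and IVL had 5, in RA-treated GFP-negative cells.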

How the data were processed

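The authors prepared strand-specific paired-end libraries of 75 bases, aligned reads with GSNAP to hg19, kept uniquely aligned reads and counted them per Ensembl gene with HTSeq 0.6.1p1 without using strand. The counts were deposited without normalization. The Ensembl release is not given in the sources used here.

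Of the 60234 identifiers, 55538 were matched to a gene name in the GENCODE annotation lifted to GRCh37, the source of all coordinates. TMM factors (0.951 to 1.07) for CPM came from edgeR 4.0.16 in R 4.3.3. Differences were taken as log2(CPM + 1), which understates changes of low genes, and 2-fold calls were limited to genes that reached 10 CPM in at least 1 of the 2 libraries compared. Ratios carry Clopper-Pearson and CPM exact Poisson intervals at 95%, for counting error only, since amplified reads are not independent molecules. No source states that the libraries came from replicate cultures. Keratins with at least 10 CPM, KRT1 and KRT24 were named with all values, and those with at least 1 CPM by name. Other genes named below 1 CPM (KRT6B, KRT6C, KRT9, KRT20, KRT81) and named list genes were chosen after their values were seen. The members and lists were chosen with earlier results of these data known. Mitochondrial genes took 14.9% and 14.1% of reads in GFP-positive and 5.56% and 7.48% in GFP-negative libraries (RA, CTR). NEFL, listed among intermediate filament genes, was not analysed here. The upstream sequences of the simple keratins and a marker of the gut and liver list are not reported here.

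On simulated data with 200 genes changed 4-fold, 100% were recovered in each comparison with 0 false calls. The intervals covered a ratio of 1 for 93.1% to 96.0% of sampled unchanged genes. The simulation drew counting error alone and changed genes by more than the 2-fold limit. It therefore checks the arithmetic and says nothing about variation between cultures. Results were recomputed with DESeq2 1.42.0 size factors, upper quartile factors, plain library size, and library size after removal of the 10 top genes and all mitochondrial ones. Further alternatives were a pseudocount of 0.25 or 5 CPM, thinning to 4371101 reads, other limits, and adding pseudogene reads to KRT8 and KRT18.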

Additional observations from a re-analysis of the deposited data

Results flagged for a closer look

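KRT19 moved in opposite directions between RA and CTR in the 2 fractions. The RA minus CTR difference in log2(CPM + 1) was -0.55 in GFP-positive cells, from 173 and 253 CPM, and 0.50 in GFP-negative cells, from 393 and 278 CPM. Each value comes from 1 library per condition, and whether the fractions differ in this respect was not tested.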

How the results depend on the processing

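With 1 library per condition, every value is limited by the lack of replicates, and no library could be left out. A paired fit of the fractions with the RA and CTR cultures as blocks, which leaves 1 residual degree of freedom, was not run. The other scalings, the pseudocounts and thinning left each number of keratins past 2-fold within 1.5 times the value reported. With genes from 1 CPM upward, the numbers were 2 and 5 for RA against CTR in GFP-positive and GFP-negative cells. The 2 stood among 10 keratins, where 7.21% of all genes passed, and the 5 include KRT16, which was lower with RA. Between GFP-positive and GFP-negative cells the numbers were 9 in CTR and 13 with RA. Apart from the first, these numbers stand without the share of all genes, so no result is read from them. A 4-fold limit gave 1 of 9 in the RA comparison of GFP-negative cells, 3 of 7 between fractions in CTR and 4 of 9 with RA, likewise without that share. Of the detected keratins, 9 and 8 had at least 1 CPM in RA-treated and CTR GFP-positive cells and 15 in RA-treated GFP-negative cells, where 19 had at least 10 reads. Thinning left 11, 8 and 16 detected in these 3 libraries, in that order. Of 40 differences of 10 named genes under 7 alternatives, 37 kept their sign in all, KRT18 in GFP-positive cells and KRT10 in GFP-negative cells changed it in 4 alternatives each, and KRT1 in GFP-positive cells became 0 after thinning. In 6 of the 40 an alternative crossed 2-fold, namely KRT4, KRT7 and KRT80 for RA against CTR in GFP-positive cells and KRT1 in the other 3 comparisons, and thinning moved KRT80 from -0.08 to -1.18. The ratio of summed simple keratins ranged from 0.912 to 0.959 and from 1.35 to 1.49 for RA against CTR in GFP-positive and GFP-negative cells. The cause of these shifts was not tested.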
